A study of Homo sapiens with 18 samples.

Results

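The genes of the mitochondrial ribosome were followed in the NCI-H295R line, established from a human tumour of the adrenal cortex and able to produce steroids. They were taken as every row of the expected-count table whose symbol is MRPL or MRPS with a number and, for some, a letter A, B or C. This gave 78 genes of 58870 in the table, all annotated as protein-coding. All 78 were among the 15787 genes with enough counts to be tested, so no member was lost to the filter on low counts.

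Cells were grown for 48 h in 6 groups. They were untreated, or received STA9090 (also called ganetespib, which blocks the HSP90 chaperone), PIK75 (which blocks the lipid kinase PI3K), BGT226 (which blocks both PI3K and mTOR), STA9090+PIK75 or STA9090+BGT226. The stated inhibitor dose was 20 nM. The sources used here do not say how much of either agent went into a combination, or whether untreated cells received a vehicle. Each group had 3 biological replicates, 18 libraries in all, of total RNA depleted of ribosomal RNA. The results describe 1 cell line, and the origin of the replicates beyond the label "biological" is not given. Library totals ran from 10.24 to 21.13 M expected counts. Levels are counts scaled to CPM, each library's total being adjusted with TMM factors. Of these scaled counts, 25.3 to 42.4% per library came from RN7SL1, RN7SL2, RN7SK and RPPH1. A further 4.94 to 11.4% came from mRNAs of mitochondrial DNA. Among untreated libraries, replicate 2 was highest in the first share (39.4%) and lowest in the second (4.94%). The median log2 fold change of all tested genes lay between -0.02 and 0.03 in every comparison.

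Mitochondria have their own ribosome, which translates only the few mRNAs of mitochondrial DNA, all of them for subunits of the oxidative phosphorylation complexes. Its RNA comes from mitochondrial DNA, but all of its proteins are encoded in the nucleus, made on cytosolic ribosomes and imported. MRPL genes carry large-subunit and MRPS genes small-subunit names, low numbers mostly go to proteins with a bacterial counterpart, and high numbers mostly to proteins acquired by mitochondria. In cells that make steroids, mitochondria also carry out the first step from cholesterol.

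By their symbols, 28 members had large-subunit numbers up to 36 and 21 had numbers of 37 and over. For the small subunit, 16 had numbers up to 21 and 13 had numbers of 22 and over. They are scattered over 21 chromosomes, with no more than 8 on any one. Some proteins sit in the other subunit than their name says: MRPS30 and MRPS18A are known from structures to belong to the large subunit. MRPS36 is now described as a part of the 2-oxoglutarate dehydrogenase complex and is kept here because the symbol rule takes it.

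Promoters from RefSeq (GRCh38.p14, 250 bases before to 50 after the start) were matched for 69 of the 78 members; MRPL2, MRPL10, MRPL13, MRPL15, MRPL21, MRPL23, MRPL35, MRPS28 and MRPS36 had no entry. They were searched on both strands for 3 words read by factors linked to nuclear genes for mitochondria. The ETS word CCGGAAG, the kind of site GABPA binds, was in 29 member promoters (42.0%), against 19.3% of 10177 promoters of tested protein-coding genes and 10.7% of all 27305 promoters. The YY1 word AAGATGGCG was in 13 (18.8%), against 4.03% and 1.85%. The NRF1 word GCATGCGC was in 6 (8.70%), against 5.54% and 3.27%. None of the 3 words was in 30 member promoters (43.5%), which says only that these letters are not in this window. A match is a description of the sequence and not a site.

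To show which of these words lie near the starts of members that the results turn on, 200 bases before and 20 after the start are given for 5 of them, 5′ to 3′ on the gene's strand, with the searched words in capitals. The first 4 are among the 5 members that differed most between the combinations, and MRPS10 had the largest fall with PIK75. MRPL1, second by that difference, held none of the 3 words, and its window is not shown. That window, and those shown for MRPL11 and MRPL28, lie inside the genes as annotated in GENCODE 29. For these members the RefSeq start used here is not the outermost annotated start. MRPL52 (chr14:22829687-22829906, plus strand) held all 3 words, MRPL58 (chr17:75012470-75012689, plus strand) held the ETS word on each strand, and MRPL28 (chr16:370519-370738, minus strand) held 1 ETS word just after the start. MRPL11 (chr11:66438829-66439048, minus strand) held none. MRPS10 (chr6:42217842-42218061, minus strand) held 1 ETS word before the start and 1 YY1 word after it. No marked stretch overlapped another.
MRPL52: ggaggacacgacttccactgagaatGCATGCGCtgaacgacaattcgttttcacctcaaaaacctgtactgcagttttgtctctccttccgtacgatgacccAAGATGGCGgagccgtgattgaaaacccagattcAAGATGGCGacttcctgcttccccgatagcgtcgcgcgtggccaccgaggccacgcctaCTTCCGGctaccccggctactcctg
MRPL58: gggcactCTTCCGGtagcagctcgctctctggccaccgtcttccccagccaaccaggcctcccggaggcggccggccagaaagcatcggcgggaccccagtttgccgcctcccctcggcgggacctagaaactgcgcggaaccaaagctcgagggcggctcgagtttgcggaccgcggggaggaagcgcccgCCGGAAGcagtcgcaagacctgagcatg
MRPL28: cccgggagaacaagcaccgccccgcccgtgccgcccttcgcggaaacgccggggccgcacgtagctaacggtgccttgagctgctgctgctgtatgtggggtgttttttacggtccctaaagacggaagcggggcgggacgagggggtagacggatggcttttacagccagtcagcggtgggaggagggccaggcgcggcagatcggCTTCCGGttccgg
MRPL11: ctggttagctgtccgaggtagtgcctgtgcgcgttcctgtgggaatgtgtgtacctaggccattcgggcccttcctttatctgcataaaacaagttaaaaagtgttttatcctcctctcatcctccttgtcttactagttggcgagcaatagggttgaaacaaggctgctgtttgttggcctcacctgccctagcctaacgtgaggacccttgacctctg
MRPS10: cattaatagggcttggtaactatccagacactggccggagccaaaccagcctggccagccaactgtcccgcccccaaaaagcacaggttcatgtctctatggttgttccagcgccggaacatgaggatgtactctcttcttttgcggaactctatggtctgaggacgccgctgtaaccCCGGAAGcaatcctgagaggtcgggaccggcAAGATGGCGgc

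In untreated cells the members were expressed at a mean of 3.40 to 120 CPM, with a median of 17.1 CPM, and no library fell below 1.67 CPM for any of them. Genes can be ranked only per length, so CPM were divided by the median length of each gene's protein-coding transcripts in kilobases. On that scale the median member reached 16.02 CPM per kb, against 5.78 over all tested protein-coding genes. The highest was the small-subunit gene MRPS24, with 166 CPM per kb, followed by the large-subunit genes MRPL49 with 126 and MRPL51 with 68.1. MRPL41 with 51.6 and MRPL37 with 51.5 CPM per kb did not differ beyond the spread of MRPL41, whose level was 65.2 ± 10.8 CPM before division by length (SD, n = 3). The lowest were MRPS31 with 2.91 and MRPL1 with 2.28 CPM per kb.

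Some rows may share reads with other genes. Exons of 15 members overlap another gene over more than 20% of their length, among them MRPS24 (77% with the readthrough gene URGCP-MRPS24 on the same strand), MRPS18C (78.9%, other strand), MRPL12 (68.2%, same strand), MRPS18A (56.9%, other strand), MRPL46 (45.3%, same strand) and MRPS6 (31.9%, same strand, including SLC5A3). The libraries are stranded per the labels, but the strand setting used in counting is not given. That setting bears only on overlaps with the other strand, and strand cannot separate reads of same-strand overlaps. Values of all these members are therefore uncertain. Of the 75 pseudogene rows named after members, those of MRPS31 held 34.5% of the counts of gene and pseudogenes together, those of MRPL45 8.35%, and no other member's over 1.39%.

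As a check on the cells, 9 of 10 adrenocortical marker genes were expressed and tested, among them the steroidogenic regulator NR5A1. CYP11B1, the enzyme of the last step to cortisol, was at most 0.355 CPM in any library. Of 4 endothelial and 3 adrenal medulla markers none reached 0.16 CPM, and 1 of 5 fibroblast markers (COL1A1) had enough counts to be tested. Of the leukocyte markers, PTPRC, the defining surface protein of these cells, was at most 0.0757 CPM in any library, LYZ at most 0.169 CPM and CD3E at 0, while CD14 had enough counts to be tested and reached 1.184 CPM.

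BGT226 gave a fall shared by most members. Of the 78 members, 43 fell and 4 rose against untreated cells, and 31 did not pass the test (adjusted p under 0.05, edgeR's quasi-likelihood test adjusted over all tested genes). Among all tested genes 15.7% fell and 12.8% rose. The median log2 fold change of the members was -0.31, against 0.01 over all tested genes, and 67 of the 78 fitted values were below 0. Summed over all members, the 3 BGT226 libraries held 1533, 1567 and 1553 CPM, and the untreated libraries 1794, 1984 and 1777 CPM. The BGT226 libraries lay close together and below every untreated library. In these bulk libraries, fewer cells of a kind and less RNA per cell cannot be told apart. Leaving out 1 library at a time kept between 29 and 40 calls. Without BGT226 replicate 3 it was 29 (26 lower, 3 higher), and without BGT226 replicate 1 it was 30 (27 lower, 3 higher). Calls also ended without untreated replicate 2, the untreated library with the highest sum over members. Among them were those of MRPS18A (adjusted p = 0.315) and MRPL15 (0.275, edgeR). Of the 47 calls, 24 held under every alternative setting and every left-out library.

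**Figure D1:**
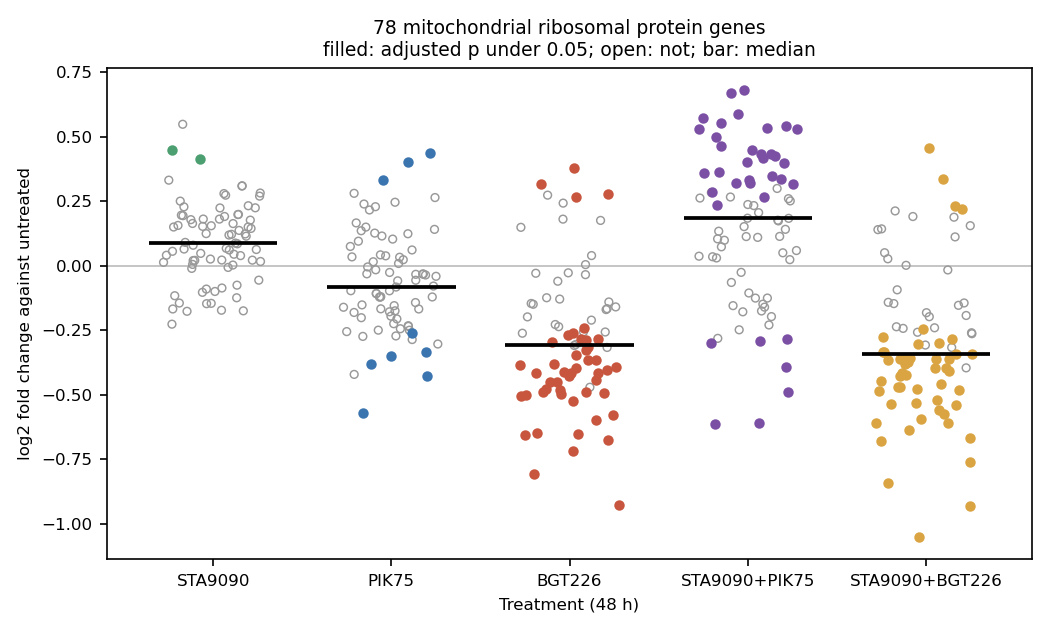
Fitted log2 fold change against untreated cells (vertical axis) of each of the 78 members in the 5 treatments (horizontal axis); filled points passed the test, open points did not, and black bars are medians. With BGT226 and STA9090+BGT226 most points lie below 0, with medians of -0.31 and -0.34, and with STA9090+PIK75 the median is 0.18.

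The fall ran through both subunits. Of the large-subunit members with numbers up to 36, 18 of 28 fell and none rose (median -0.37), and of those with higher numbers 11 of 21 fell and 1 rose. In the small subunit, 7 of 16 low-numbered members fell and 1 rose, and 7 of 13 high-numbered members fell and 2 rose. Whether these shares differ between the subgroups was not tested.

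**Figure D2:**
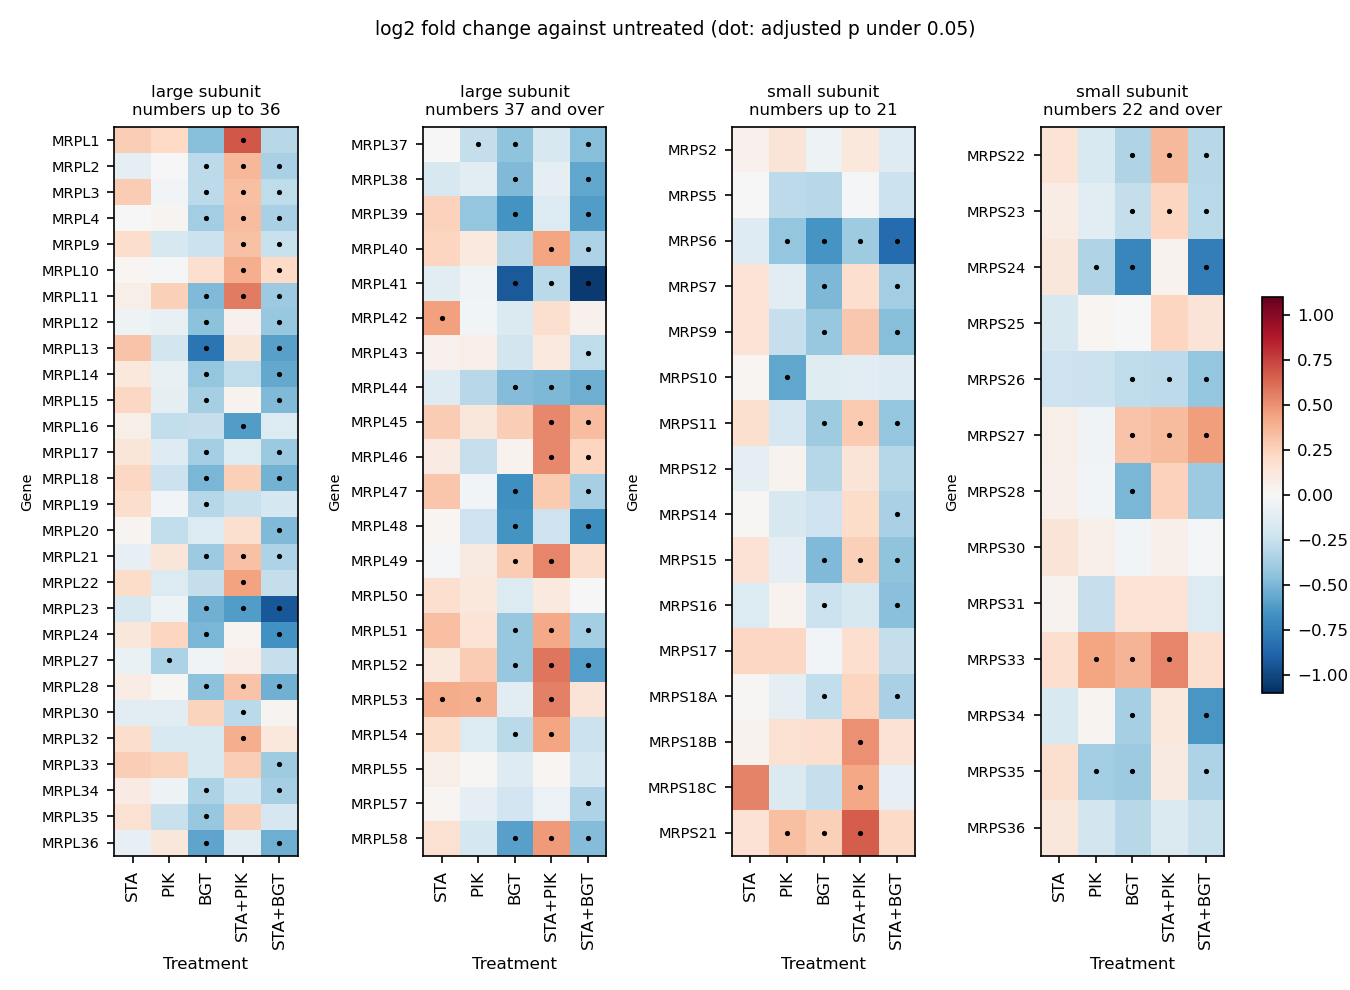
Fitted log2 fold change against untreated cells (colour, log2 scale) of every member (rows, in 4 panels by subunit and number) with STA9090 (STA), PIK75 (PIK), BGT226 (BGT) and the combinations (columns); a dot marks an adjusted p under 0.05. The BGT and STA+BGT columns are mostly blue in all 4 panels, with exceptions such as MRPS27, MRPL45 and MRPL10, and the STA+PIK column is mostly red.

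MRPL41, a large-subunit protein without a bacterial counterpart, fell furthest. It had 58.9, 77.7 and 58.9 CPM in the untreated libraries and 35.2, 34.5 and 33.5 CPM with BGT226. The groups did not overlap, and the log2 fold change was -0.93 ± 0.11 (SE, adjusted p = 4.89e-06, edgeR). MRPL41 was the only member of 78 to pass a 2-fold change against untreated cells in any treatment, with STA9090+BGT226 (below). MRPL13, a large-subunit protein of the bacterial type, went from 9.69, 10.5 and 10.5 CPM to 5.42, 6.54 and 5.61 CPM. Its log2 fold change was -0.81 ± 0.16 (adjusted p = 0.000759, edgeR), again without overlap.

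MRPS24, the highest member per length, went from 117, 138 and 105 CPM in untreated cells to 69.1, 77.5 and 73.1 CPM. All BGT226 libraries lay below all untreated ones, with a log2 fold change of -0.72 ± 0.08 (adjusted p = 3.31e-06, edgeR), and because its row overlaps a readthrough gene the value is uncertain. MRPL47, of the large subunit near the exit of the peptide tunnel, had 10.3, 10.2 and 10.1 CPM untreated and 7.59, 5.82 and 6.03 CPM with BGT226 (log2 fold change -0.68 ± 0.13, adjusted p = 0.000423, edgeR). MRPS6, a small-subunit protein, fell by 0.65 ± 0.10 on the log2 scale (adjusted p = 5.1e-05).

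Several members with known special roles also fell with BGT226. MRPL58 (ICT1), a peptide-releasing enzyme that rescues stalled ribosomes and is built into the large subunit, had 7.04, 6.83 and 8.46 CPM untreated and 5.12, 4.70 and 4.87 CPM with BGT226. The groups were apart, with a log2 fold change of -0.60 ± 0.15 (adjusted p = 0.00569, edgeR). MRPL36 fell by 0.58 ± 0.11 and MRPL12, a stalk protein that also binds the mitochondrial RNA polymerase, by 0.45 ± 0.12 on the log2 scale (adjusted p = 0.000585 and 0.00999, edgeR). MRPS7 and MRPS15, which bind the small-subunit RNA, both fell by 0.49 on that scale (adjusted p = 0.000343 and 0.00128, edgeR).

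Members that rose or did not pass the test with BGT226 were fewer. MRPS27, a small-subunit protein of the pentatricopeptide repeat family, had 61.0, 73.4 and 62.6 CPM untreated and 81.2, 80.5 and 83.7 CPM with BGT226. The BGT226 libraries were all higher, with a log2 fold change of 0.32 ± 0.08 (adjusted p = 0.00415, edgeR). The rises of MRPS33 (0.38), MRPL49 (0.28) and MRPS21 (0.27, all log2) had adjusted p of 0.0144, 0.0159 and 0.031 (edgeR). Each of these 3 calls ended without untreated replicate 1 (adjusted p = 0.084, 0.0811 and 0.127). MRPS33 also lost it without BGT226 replicate 1 (0.0566), MRPL49 without BGT226 replicate 2 (0.0812) or untreated replicate 3 (0.0524), and MRPS21 without BGT226 replicate 2 (0.0847) or 3 (0.115) or untreated replicate 3 (0.138). MRPS30 had a log2 fold change of -0.03 (adjusted p = 0.842), MRPS36 of -0.31 (0.156) and MRPL1, of the flexible stalk beside the exit site for tRNA, of -0.47 (0.143, all edgeR). MRPS12, of the decoding centre, had -0.32 (0.0772), with all BGT226 libraries below all untreated ones. The highest adjusted p were those of MRPS25 (0.981) and MRPS17 (0.887).

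PIK75 alone moved few members. Among members, 3 rose and 6 fell, where 8.49% of all tested genes rose and 10.2% fell, and the members' median log2 fold change was -0.08. The adrenocortical markers summed to 1295 to 1487 CPM with PIK75 and 2098 to 2521 CPM in untreated cells, and the fibroblast markers to 4.802 to 7.86 and 8.71 to 11.9 CPM. The part of these shifts in the members' values was not tested. MRPS10, of the head of the small subunit, had 13.6, 14.1 and 13.5 CPM untreated and 10.2, 10.0 and 7.52 CPM with PIK75. All PIK75 libraries were lower, and the log2 fold change was -0.57 ± 0.11 (adjusted p = 0.00129, edgeR). MRPS6 fell by 0.43 ± 0.10 on the log2 scale (adjusted p = 0.0037) and MRPS35 by 0.38 ± 0.08 (0.0019, edgeR). MRPL27, at the peptidyl transferase centre, had -0.35 ± 0.11 (adjusted p = 0.0262), a call that ended without PIK75 replicate 1 (0.109) or 3 (0.0513), without untreated replicate 1 (0.0522) or 2 (0.0962), and with DESeq2 (0.0614). MRPL2 and MRPL28 had the highest adjusted p (0.981 and 0.961).

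Without untreated replicate 1 the count with PIK75 was 4, all lower. The 3 rises were those of MRPS33 (0.44, log2), MRPL53 (0.40) and MRPS21 (0.33), and each ended without that library (adjusted p = 0.0617, 0.059 and 0.0712, edgeR). They also ended without PIK75 replicate 2 for MRPS33 (0.0593) and MRPS21 (0.0685), without PIK75 replicate 3 for MRPL53 (0.077), and without untreated replicate 3 for MRPS21 (0.0648).

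With STA9090 alone few members passed the test. Of the members 2 rose and none fell, where 1.16% of all tested genes rose and 1.68% fell. By edgeR, 14 members had an unadjusted p under 0.05 and DESeq2 called 3, all higher. The members' median log2 fold change was 0.09, and 60 of 78 fitted values were above 0. MRPL42 had 14.9, 14.3 and 14.9 CPM untreated and 22.4, 18.7 and 18.9 CPM with STA9090. The groups did not overlap, with a log2 fold change of 0.45 ± 0.11 (adjusted p = 0.0318, edgeR). For MRPL53 it was 0.41 ± 0.11 (adjusted p = 0.0397, edgeR). MRPL37 and MRPS5 had the highest adjusted p (0.992 and 0.986).

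Neither STA9090 call was stable. Both ended when STA9090 and untreated cells were fitted alone (adjusted p = 0.15 for MRPL42 and 0.18 for MRPL53). The MRPL42 call ended without STA9090 replicate 1 (0.148) or any untreated library (0.0706, 0.0831 and 0.0775 without replicates 1, 2 and 3). That of MRPL53 ended without any STA9090 library (0.0795, 0.0804 and 0.0834 without replicates 1, 2 and 3), without untreated replicate 1 (0.126) or 3 (0.124), and with no filter on low counts (0.0537). The count fell to 0 without STA9090 replicate 1, untreated replicate 1 or untreated replicate 3, and to 1 without STA9090 replicate 2 or untreated replicate 2.

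With STA9090+PIK75 the members moved mostly upwards. In this combination 29 rose and 7 fell against untreated cells, where 18.3% of all tested genes rose and 20.1% fell. The median log2 fold change of the members was 0.18, against 0.01 over all tested genes. Their summed level was 2123, 2060 and 2023 CPM in the 3 libraries, above the highest untreated library at 1984 CPM. Among the adrenocortical markers, the summed level ran from 1001 to 1047 CPM with STA9090+PIK75 and from 2098 to 2521 CPM in untreated cells. The 5 fibroblast markers, nearly all of it COL1A1, summed to 0.714 to 1.26 CPM against 8.71 to 11.9 CPM. The part of these shifts in the members' values was not tested. Of the 36 calls, 24 held under every alternative.

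MRPS21, of the small subunit, was among the largest rises. It had 24.97, 30.3 and 24.4 CPM untreated and 45.9, 39.5 and 41.9 CPM with STA9090+PIK75. All treated libraries were higher, and the log2 fold change was 0.67 ± 0.09 (adjusted p = 5.71e-06, edgeR). MRPL52, the promoter of which held all 3 words shown above, went from 11.4, 9.67 and 9.47 CPM to 18.2, 15.7 and 12.2 CPM, without overlap (log2 fold change 0.59 ± 0.14, adjusted p = 0.00186, edgeR). MRPL11, at the base of the factor-binding stalk, went from 22.1, 27.2 and 24.4 CPM to 39.02, 36.9 and 33.7 CPM (0.57 ± 0.14, adjusted p = 0.00231, edgeR).

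The stalk protein MRPL10 rose by 0.40 ± 0.08 on the log2 scale (adjusted p = 0.000728), while its partner MRPL12 had a log2 fold change of 0.05 ± 0.12 (adjusted p = 0.775, both edgeR). MRPL1 had the largest fitted rise at 0.68 ± 0.21 (adjusted p = 0.0164, edgeR), from the lowest level of all members. That call ended without STA9090+PIK75 replicate 2 (adjusted p = 0.0876) or untreated replicate 1 (0.0851). MRPL3, mutated in a childhood cardiomyopathy, rose by 0.33 ± 0.09, and MRPS22, mutated in a combined oxidative phosphorylation deficiency, by 0.36 ± 0.10 on that scale (adjusted p = 0.00736 and 0.00956, edgeR). MRPS27 rose here too, to 85.4, 83.1 and 82.7 CPM (0.35 ± 0.08, adjusted p = 0.00132, edgeR).

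The 7 falls with STA9090+PIK75 were led by MRPL16 and MRPL23. MRPL16, a large-subunit protein near the tRNA sites, had 12.4, 11.4 and 13.4 CPM untreated and 7.95, 7.95 and 8.36 CPM treated. The groups were apart, with a log2 fold change of -0.61 ± 0.13 (adjusted p = 0.000789, edgeR). MRPL23, at the tunnel exit, had the same fitted change with a wider error, -0.61 ± 0.18 (adjusted p = 0.0107), and was no longer called without untreated replicate 2 (0.0724, edgeR). MRPL44, which has an RNase III fold, had 7.64, 9.53 and 10.1 CPM untreated and 7.68, 5.30 and 6.51 CPM treated. Its groups overlapped, with a log2 fold change of -0.49 ± 0.14 (adjusted p = 0.0107), and the call ended without STA9090+PIK75 replicate 2 (0.076). MRPS6 fell by 0.39 ± 0.10 on the log2 scale (adjusted p = 0.0032, edgeR). The highest adjusted p were those of MRPL55 (0.922) and MRPS5 (0.892).

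The 3 MRPS18 genes encode related proteins that take different places in the ribosome. With STA9090+PIK75, MRPS18B went from 17.9, 25.4 and 17.6 CPM to 27.7, 29.7 and 28.9 CPM, without overlap (log2 fold change 0.50 ± 0.11, adjusted p = 0.00125, edgeR). MRPS18A, of the large subunit, had 0.24 ± 0.10 (adjusted p = 0.0595), and MRPS18C 0.43 ± 0.16 (adjusted p = 0.0421, edgeR). The MRPS18C call ended without any of the untreated libraries (adjusted p = 0.0503, 0.0978 and 0.129 without replicates 1, 2 and 3) and without STA9090+PIK75 replicate 1 (0.221) or 3 (0.0878). It also ended with DESeq2 (0.0648), with no filter on low counts (0.0634) and in a fit of the compared groups alone (0.0547).

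With STA9090+BGT226, 46 members fell and 4 rose against untreated cells, where 20.4% of all tested genes fell and 19.4% rose. The members' median log2 fold change was -0.34, against 0.03 over all tested genes. Their summed level was 1521, 1538 and 1527 CPM in the 3 libraries, below every untreated library. The summed adrenocortical markers ran from 2401 to 2615 CPM in these libraries. Of the 50 calls, 32 held under every alternative. Falls came to 19 of 28 and 13 of 21 large-subunit members with lower and higher numbers, and to 8 of 16 and 6 of 13 in the small subunit.

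MRPL41 again led, with 31.5, 28.8 and 34.0 CPM, less than 50% of its fitted untreated level (log2 fold change -1.05 ± 0.11, adjusted p = 5.33e-07, edgeR). MRPL23 went from 14.2, 17.6 and 12.4 CPM to 7.18, 7.17 and 8.81 CPM, without overlap (-0.93 ± 0.18, adjusted p = 0.000406, edgeR). MRPS6 went from 18.4, 21.7 and 22.3 CPM to 10.6, 12.8 and 11.3 CPM (-0.84 ± 0.10, adjusted p = 1.52e-06, edgeR). MRPS6 passed the test as lower in the 4 treatments that hold PIK75 or BGT226 and had -0.14 with STA9090 alone (adjusted p = 0.44); the treatments share the untreated libraries.

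MRPS24 fell to 72.6, 68.7 and 71.9 CPM with STA9090+BGT226 (log2 fold change -0.76 ± 0.08, adjusted p = 7.7e-07, edgeR). MRPS34, mutated in Leigh syndrome, fell by 0.64 on that scale (adjusted p = 0.00101), MRPL44 by 0.54 ± 0.14 (0.00508) and MRPL57 by 0.34 (0.00415, all edgeR). MRPS27 rose to 93.9, 93.0 and 83.9 CPM, above every untreated library (log2 fold change 0.46 ± 0.08, adjusted p = 9.26e-05, edgeR). MRPL50 and MRPS30 had the highest adjusted p (0.994 and 0.902).

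The other 3 rises with STA9090+BGT226 were small and less stable: MRPL45 (0.34), MRPL46 (0.23) and MRPL10 (0.22, all log2), with adjusted p of 0.0294, 0.0367 and 0.0411 (edgeR). DESeq2 gave 0.0574, 0.102 and 0.098. All 3 ended without untreated replicate 1 (0.181, 0.105 and 0.18) or STA9090+BGT226 replicate 1 (0.0647, 0.0924 and 0.127). MRPL45 and MRPL10 also ended without STA9090+BGT226 replicate 2 (0.165 and 0.142) or untreated replicate 3 (0.0901 and 0.207), and MRPL46 without STA9090+BGT226 replicate 3 (0.17) or untreated replicate 2 (0.169).

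**Figure D3:**
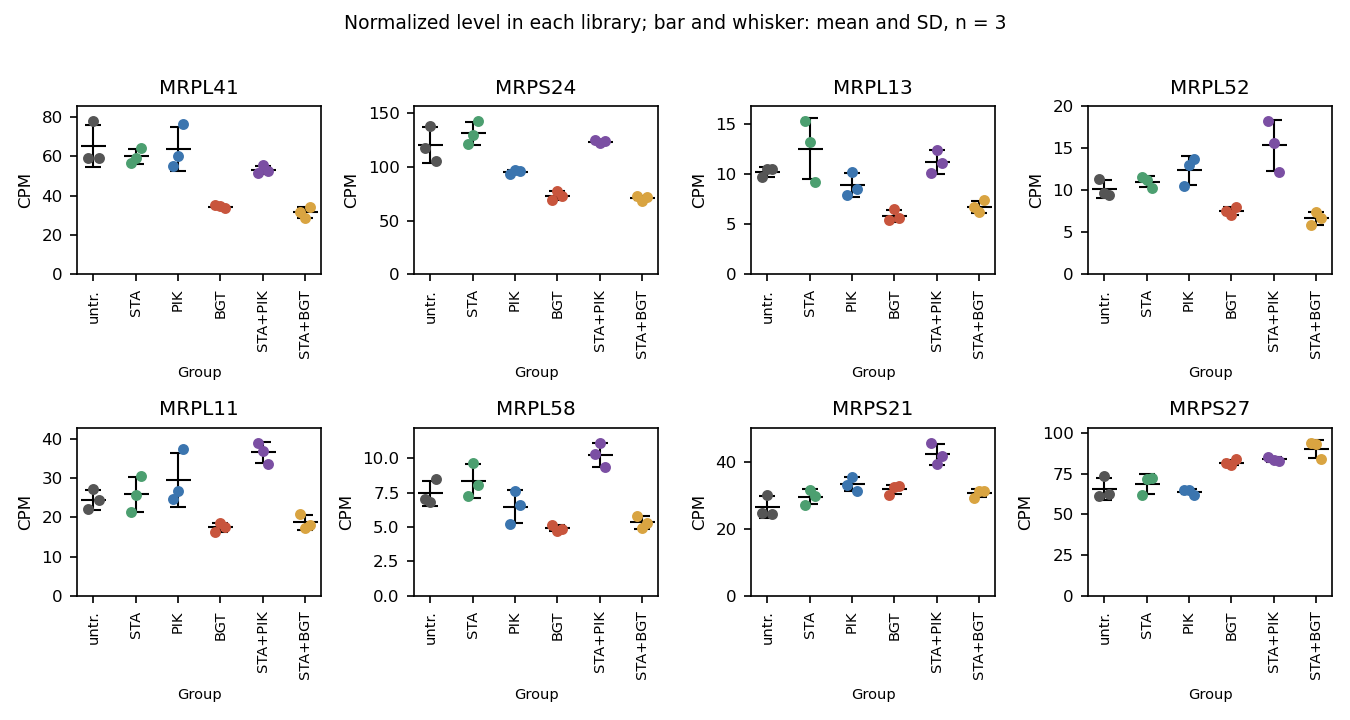
Normalized level in CPM (vertical axes from 0) of 8 members in each of the 18 libraries (points) by group (horizontal axes); bars and whiskers are the mean and SD of 3 libraries. MRPL41, MRPS24 and MRPL13 are low in both groups with BGT226, MRPL52, MRPL11 and MRPL58 are highest with STA9090+PIK75, and MRPS27 is high in both BGT226 groups and with STA9090+PIK75.

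Each combination was also set against its parts. Adding STA9090 to PIK75 raised 34 members and lowered 1, where 11.3% of all tested genes rose and 14% fell, with a members' median of 0.29 (log2). MRPL46 had 17.8, 17.4 and 16.7 CPM with PIK75 and 31.3, 30.6 and 27.4 CPM with the combination. The groups were well apart, with a log2 fold change of 0.78 ± 0.09 (adjusted p = 1.95e-06, edgeR). Because its row overlaps another gene on the same strand, the value is uncertain. MRPL58 went from 5.23, 7.64 and 6.59 CPM with PIK75 to 10.3, 11.1 and 9.32 CPM (0.66 ± 0.14, adjusted p = 0.00204, edgeR). The 1 fall was that of MRPL23 (-0.55 ± 0.18, adjusted p = 0.0288), which ended without PIK75 replicate 2 (0.0733) or 3 (0.0819) or STA9090+PIK75 replicate 2 (0.0726) or 3 (0.0942).

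Adding PIK75 to STA9090 raised 14 members (17.9%) and lowered 6 (7.69%), where 17.7% of all tested genes rose and 19.8% fell. The share of members that rose was thus near that of all tested genes, and the members' median was 0.08. MRPL49 went from 55.0, 68.5 and 67.5 CPM with STA9090 to 98.7, 92.8 and 86.6 CPM (log2 fold change 0.54 ± 0.08, adjusted p = 3.38e-05, edgeR), and MRPS21 rose by 0.51 ± 0.09. MRPL16 fell by 0.68 ± 0.13 on that scale (adjusted p = 0.000321), from 15.99, 11.2 and 11.2 CPM, and all libraries of the combination were lower. MRPL19 fell by 0.44 ± 0.11 (adjusted p = 0.0034, edgeR).

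Adding BGT226 to STA9090 lowered 54 members and raised 2, where 20.9% of all tested genes fell and 19.5% rose, with a members' median of -0.42. MRPL41 fell by 0.93 ± 0.11 and MRPL13 by 0.90 ± 0.15 on the log2 scale (adjusted p = 2.18e-06 and 9.28e-05, edgeR). For MRPL13 the STA9090 libraries had 15.3, 13.2 and 9.22 CPM and those of the combination 6.70, 6.19 and 7.39 CPM. The 2 rises were MRPS27 (0.40 ± 0.08, adjusted p = 0.00036) and MRPS25 (0.32), of which the second ended without STA9090 replicate 3 (adjusted p = 0.0532) or STA9090+BGT226 replicate 2 (0.104, edgeR).

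Adding STA9090 to BGT226 moved no member past the threshold of edgeR's adjusted test, where 0.988% of all tested genes rose and 1.7% fell. At an unadjusted p under 0.05 there were 9 members, DESeq2 called 0, and a fit of these groups alone called 3. The members' median was -0.02. The values do not show that the groups are alike.

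The step from adding STA9090 was compared between cells with and without a PI3K inhibitor through an interaction term on the log2 scale. For PIK75 it was positive in 5 members and negative in none, where 3.54% and 5.73% of all tested genes were called, and the members' median was 0.19. MRPL46 had the largest value, 0.69 ± 0.12 (adjusted p = 0.00145, edgeR): STA9090 alone gave a log2 fold change of 0.09 and STA9090 on top of PIK75 gave 0.78. That call held under every alternative, but none of them addresses the overlap of its exons with another gene on the same strand. For BGT226, edgeR called no member, 7 had an unadjusted p under 0.05, and DESeq2 called 0. Of all tested genes 0.00633% were called higher and 0% lower, and the members' median was -0.11.

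The PI3K inhibitors were compared at the same time and stated dose. BGT226 libraries were lower than PIK75 libraries in 30 members and higher in 5, where 16.5% of all tested genes were lower and 15.5% higher. The members' median was -0.23 (log2). The adrenocortical markers summed to 2023 to 2141 CPM with BGT226, above their level with PIK75, and the part of this in the difference was not tested. Without BGT226 replicate 3 the count was 21 (18 lower, 3 higher). MRPL41 had 55.1, 59.9 and 76.3 CPM with PIK75, and the difference was -0.89 ± 0.11 (adjusted p = 5.04e-06, edgeR). MRPL11 had 24.7, 26.7 and 37.5 CPM with PIK75 and 16.3, 18.7 and 17.5 CPM with BGT226 (-0.75 ± 0.14, adjusted p = 0.000359, edgeR). In the other direction, MRPS10 was higher with BGT226 by 0.44 ± 0.11 on the log2 scale (adjusted p = 0.00538, edgeR). MRPL30, higher by 0.36, lost its call without PIK75 replicate 1 (adjusted p = 0.0574) or 3 (0.0632).

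Calls were most numerous between the combinations, over the 13 comparisons fitted. With STA9090+BGT226, 58 members were lower and 2 higher than with STA9090+PIK75, and 18 did not pass the test. Among all tested genes 20.9% were lower and 22.4% higher. The members' median was -0.45, against 0.02 over all tested genes and 74 of 78 fitted values were below 0. By subgroup the lower members were 21 of 28 and 16 of 21 in the large subunit and 14 of 16 and 7 of 13 in the small. Of the 60 calls, 47 held under every alternative.

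MRPL52 differed most. It had 18.2, 15.7 and 12.2 CPM with STA9090+PIK75 and 5.90, 7.39 and 6.68 CPM with STA9090+BGT226, well apart. The log2 difference was -1.20 ± 0.14 (adjusted p = 1.09e-06, edgeR), the only one past 2-fold. MRPL1 had 5.71, 6.33 and 4.37 against 2.63, 3.24 and 2.42 CPM (-0.99 ± 0.22, adjusted p = 0.00102, edgeR).

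MRPL11 had 39.02, 36.9 and 33.7 CPM with STA9090+PIK75 against 20.8, 17.4 and 18.0 CPM (log2 difference -0.97 ± 0.14, adjusted p = 1.05e-05, edgeR). MRPL58 had 10.3, 11.1 and 9.32 against 5.82, 4.90 and 5.26 CPM (-0.94 ± 0.15, adjusted p = 2.79e-05, edgeR). MRPL28 had 41.4, 43.7 and 42.9 against 22.8, 22.6 and 25.7 CPM (-0.85 ± 0.09, adjusted p = 3.56e-07, edgeR). In all 3 the groups lay apart. The promoters of MRPL52, MRPL58 and MRPL28 held the ETS word and those of MRPL1 and MRPL11 held none of those searched. For MRPL28, MRPL1 and MRPL11 the window searched lies inside the annotated gene, as stated above. The sequence around their outermost annotated starts was not searched.

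MRPL16 was higher with STA9090+BGT226, with 10.8, 11.2 and 11.4 CPM against 7.95, 7.95 and 8.36 CPM (log2 difference 0.47 ± 0.13, adjusted p = 0.00582, edgeR). The other was MRPL30 (0.32), a call that ended without STA9090+BGT226 replicate 2 (adjusted p = 0.12) or STA9090+PIK75 replicate 1 (0.0574) or 2 (0.0598). MRPS27, high in both combinations, had a log2 difference of 0.11 ± 0.08 (adjusted p = 0.268, edgeR).

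**Figure D4:**
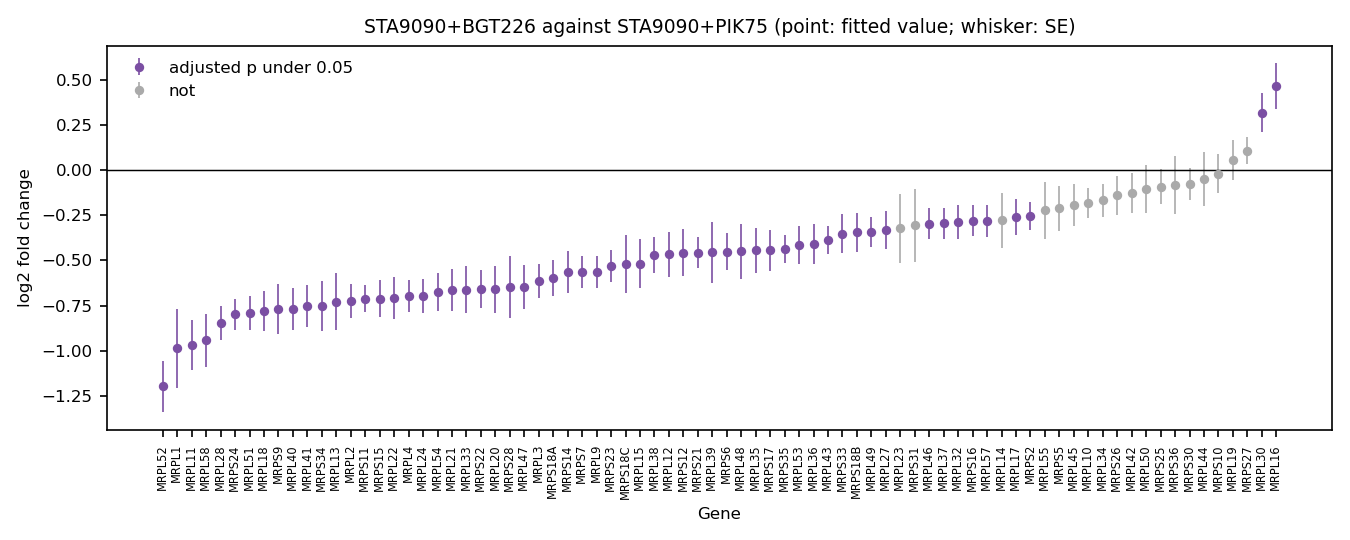
Fitted log2 fold change of STA9090+BGT226 against STA9090+PIK75 (vertical axis) with its SE (whiskers) for the 78 members in order of size (horizontal axis); purple points passed the test. The 58 lower members run from MRPL52 at -1.20 upwards, and MRPL30 and MRPL16 at the right end are the 2 higher ones.

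Members with and without a searched word in the promoter can be set side by side. Between the combinations, 24 of 29 members with the ETS word were lower and 2 higher (median -0.52), and 28 of 40 without it were lower (median -0.38). With BGT226 against untreated cells, 15 of 29 with it (median -0.27) and 21 of 40 without it (median -0.37) fell. Of the 13 with the YY1 word 5 fell with BGT226 (median -0.17), and of the 56 without it 31 (median -0.31). Of the 6 with the NRF1 word, 2 fell with BGT226, 5 rose with STA9090+PIK75 and 6 were lower between the combinations. Of the 63 without it, these counts were 34, 21 and 46. These counts and medians were not tested against each other.

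A start on the opposite strand within 1000 bases was annotated for 29 members (37.2%), against 2279 of 13009 tested protein-coding genes (17.5%). MRPL46 and MRPS11 are each other's neighbour. With STA9090+BGT226, MRPS11 had a log2 fold change of -0.43 ± 0.07 (adjusted p = 0.000139, edgeR) and MRPL46 one of 0.23. Of 24 tested partners that are not members, 4 fell (16.7%) and 3 rose (12.5%) with BGT226, against 15.7% and 12.8% of all tested genes. With STA9090+PIK75 1 fell (4.17%) and 11 rose (45.8%), against 20.1% and 18.3%. With STA9090+BGT226 7 fell (29.2%) and 2 rose (8.33%), against 20.4% and 19.4%. NDUFS6, a subunit of respiratory complex I beside MRPL36, fell by 1.32 on the log2 scale with STA9090+BGT226 and by 0.98 with BGT226.

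Other genes of mitochondrial translation were counted in lists, with no test between the lists. Of all tested genes, 1.68% fell and 1.16% rose with STA9090, and 10.2% fell and 8.49% rose with PIK75. With BGT226 15.7% fell and 12.8% rose, with STA9090+PIK75 20.1% and 18.3%, and with STA9090+BGT226 20.4% and 19.4%. These shares belong beside the counts of every list below. Of 5 further genes for mitoribosomal proteins with other names, 3 fell and 1 rose with BGT226. GADD45GIP1, a large-subunit protein, fell by 0.61 ± 0.12 on the log2 scale with BGT226 and by 0.68 ± 0.12 with STA9090+BGT226 (adjusted p = 0.000825 and 0.000198, edgeR). PTCD3, a small-subunit protein, rose with STA9090+PIK75 by 0.55 ± 0.06 (adjusted p = 4.91e-07) and had -0.02 with BGT226. In that combination 1 of the 5 rose and 1 fell, and with STA9090+BGT226 1 rose and 2 fell, among them AURKAIP1 (-0.42 ± 0.10, adjusted p = 0.00262, edgeR).

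Among 25 genes for assembly of the mitoribosome and modification of its RNA, 6 fell (24%) and 5 rose (20%) with BGT226. The shares of all tested genes were 15.7% and 12.8%. With STA9090+PIK75 none fell and 9 rose (36%), against 20.1% and 18.3%. With STA9090+BGT226 5 fell (20%) and 6 rose (24%), against 20.4% and 19.4%. MPV17L2, needed for ribosome assembly at the inner membrane, fell by 0.84 ± 0.11 with BGT226 and by 1.06 ± 0.12 with STA9090+BGT226 (log2, adjusted p = 1.67e-05 and 7.16e-07, edgeR). ERAL1, a chaperone of the small-subunit RNA, fell by 0.55 and 0.53. TFB1M, which dimethylates that RNA, rose by 0.82 with BGT226, 1.03 with STA9090+PIK75 and 0.92 with STA9090+BGT226 (adjusted p = 0.00202, 0.000162 and 0.000442, edgeR). GTPBP10, a GTPase of large-subunit assembly, rose by 0.73 ± 0.14 in both combinations (adjusted p = 0.000427 and 0.000376). With STA9090 none of the 25 passed and with PIK75 1 rose and 1 fell.

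Of 17 mitochondrial translation factors, 6 fell (35.3%) and 1 rose (5.88%) with BGT226, against 15.7% and 12.8% of all tested genes. With STA9090+PIK75 none fell and 5 rose (29.4%), against 20.1% and 18.3%. With STA9090+BGT226 6 fell (35.3%) and 4 rose (23.5%), against 20.4% and 19.4%. MRRF, the ribosome recycling factor, rose by 0.65 ± 0.07, 0.41 ± 0.07 and 0.60 ± 0.07 on the log2 scale in these 3 treatments. PDF, which removes the formyl group from new peptides, fell by 0.63 ± 0.17 with BGT226 (adjusted p = 0.0067, edgeR), and MTIF2, an initiation factor, rose by 0.72 ± 0.16 with STA9090+PIK75 (0.00138). TACO1, an activator of translation of one mitochondrial mRNA, fell by 0.55 with BGT226 and 0.66 with STA9090+BGT226 (adjusted p = 0.000283 and 2.73e-05, edgeR). The mRNAs that the mitoribosome translates showed few calls. Their share of the scaled counts ran from 4.94 to 10.8% among the untreated libraries alone. With this spread, few calls do not show that these mRNAs were unchanged. Of 13, none passed edgeR's adjusted test with STA9090, PIK75 or BGT226 alone. At an unadjusted p under 0.05 there were 0, 0 and 1, and DESeq2 called 0, 0 and 0. In the combinations, 1 rose with each: MT-ND2 with STA9090+PIK75 (0.65) and MT-CO1 with STA9090+BGT226 (0.45). The median log2 fold change of the 13 was 0.16 with BGT226, with 11 fitted values above 0 and 2 below. It was 0.15 with STA9090 (12 above, 1 below) and -0.03 with PIK75 (5 above, 8 below). For STA9090+PIK75 this median was 0.18 (12 above, 1 below), and for STA9090+BGT226 -0.02 (5 above, 8 below).

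Both calls of mitochondrial mRNAs were unstable. MT-ND2 lost it without STA9090+PIK75 replicate 1 (adjusted p = 0.29) or 3 (0.0698) or untreated replicate 2 (0.227) or 3 (0.154). MT-CO1 lost it without STA9090+BGT226 replicate 1 (0.146) or 3 (0.117) or untreated replicate 2 (0.181) or 3 (0.136). DESeq2 gave 0.0951 and 0.075.

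Of 9 genes for copying and transcribing mitochondrial DNA, 1 fell and 1 rose with BGT226. That was 11.1% each, against 15.7% and 12.8% of all tested genes. With STA9090+PIK75 1 fell and 1 rose (11.1% each, against 20.1% and 18.3%). With STA9090+BGT226 2 fell and 2 rose (22.2% each, against 20.4% and 19.4%). POLG, the mitochondrial DNA polymerase, fell by 0.85 ± 0.09 with STA9090+PIK75 (log2, adjusted p = 6.98e-07, edgeR) and by 0.34 ± 0.09 with STA9090+BGT226 (0.00551). Of 10 nuclear regulators, none fell and 1 rose (10%) with BGT226, against 15.7% and 12.8% of all tested genes. With STA9090+PIK75 5 fell (50%) and none rose, against 20.1% and 18.3%. With STA9090+BGT226 3 fell (30%) and 1 rose (10%), against 20.4% and 19.4%. PPARGC1B, a coactivator of mitochondrial genes, fell by 0.49 ± 0.14 with STA9090+PIK75 and by 0.55 ± 0.14 with STA9090+BGT226 (adjusted p = 0.00922 and 0.00352, edgeR), and GABPB1, a partner of GABPA, by 0.42 ± 0.11 with STA9090+BGT226 (0.00635). MYC rose by 0.53 ± 0.09 with BGT226 and by 0.44 ± 0.09 with PIK75 (adjusted p = 0.000293 and 0.00253, edgeR). The other regulators called with STA9090+PIK75 were PPARGC1A, ESRRA, GABPA and YY1, all lower, and each call ended under at least 1 alternative. That of GABPA ended only without untreated replicate 3 (adjusted p = 0.0582, edgeR). NRF1 did not pass the test in any of the 5 treatments.

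The mRNAs for proteins of the cytosolic ribosome went the other way with BGT226. Of 85 tested genes (of 89), 42 rose and 3 fell with BGT226, against 12.8% and 15.7% of all tested genes. With STA9090+PIK75 48 rose and 3 fell, against 18.3% and 20.1%. With STA9090+BGT226 44 rose and 7 fell, against 19.4% and 20.4%. The median log2 fold changes of the cytosolic set were 0.29, 0.29 and 0.28. RPL12 had 0.97 with BGT226 (adjusted p = 4.43e-07, edgeR). Their summed level was 24696 ± 628 CPM with BGT226 and 19392 ± 2332 CPM in untreated cells (SD, n = 3). With STA9090 alone 5 rose and none fell, and with PIK75 alone 2 rose and 1 fell. The difference between the cytosolic and the mitochondrial set was not tested.

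**Figure D5:**
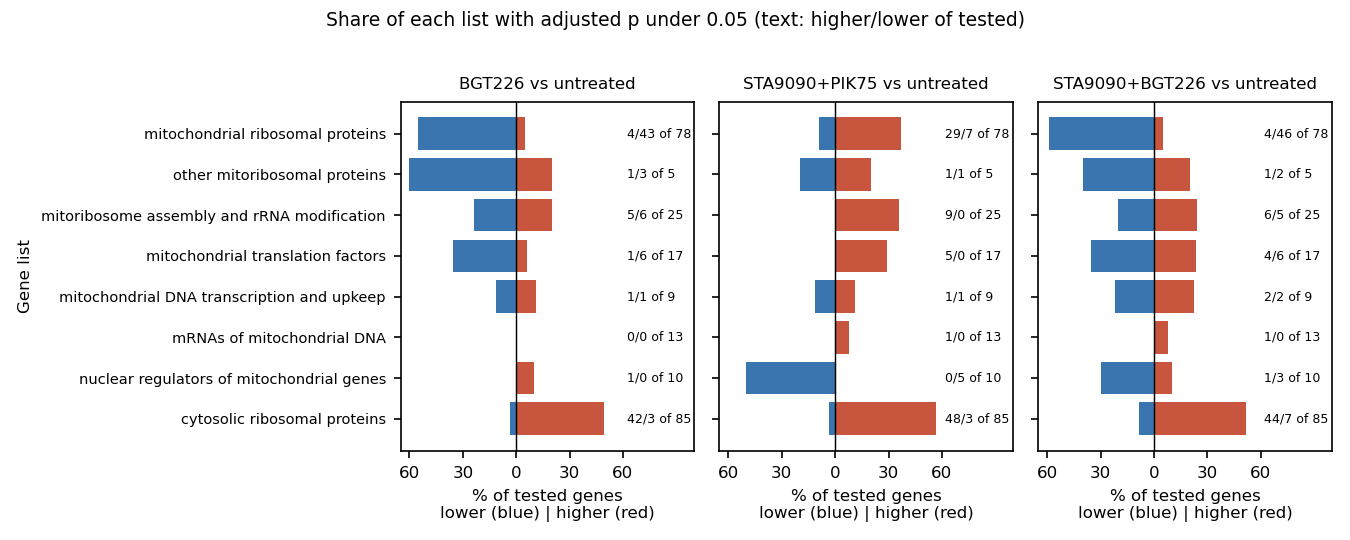
Share of each gene list (horizontal axis, percent of tested genes) that passed the test as higher (red, right of 0) or lower (blue, left of 0) than untreated cells, with BGT226, STA9090+PIK75 and STA9090+BGT226; the text gives higher/lower counts of the genes tested. The mitochondrial ribosomal proteins are mostly lower in both BGT226 panels (43 and 46 of 78). Of the cytosolic ones 42 and 44 of 85 are higher in these panels, and 3 and 7 are lower.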

How the data were processed

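RNA was measured by stranded total RNA sequencing in the 18 libraries. Expected counts, estimated per gene and unscaled, are what the authors deposited, in 1 table. Per the submitters' processing notes the tools were RSEM 1.3.1, STAR 2.7.0f, cutadapt 1.18 and bcl2fastq 2.20, with the build hg38 and no settings; the annotation release is not given in the sources used here. All 18 table columns were matched to libraries by name.

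Counts were rounded to whole numbers and analysed with edgeR 4.0.16 in R 4.3.3. Genes passing filterByExpr (minimum count 10, minimum total 15) were kept, libraries were scaled by TMM, and 1 model with a mean per group and no covariate was fitted to all libraries. The quasi-likelihood F test gave p, adjusted by Benjamini-Hochberg over the 15787 genes of each of 13 comparisons, with a threshold of 0.05. Each SE was derived from the log2 fold change and its F value, and CPM means carry the SD of 3 libraries. P-values measure the spread between these replicates. The fit was also run on simulated counts, drawn with the spread that the fit itself had estimated. It was required to recover only changes of 2-fold or more, larger than most reported here. The simulation therefore does not bear on the smaller calls.

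Gene positions, types, transcript lengths and overlaps came from GENCODE 29, which held 99.5% of the gene IDs when versions are ignored, and promoters from RefSeq. The lists of related genes and of marker genes and the rule for naming members (the largest changes in each direction, the largest adjusted p, and a fixed set of 20) were, like the members, chosen with earlier results of these data known. The rule takes, among called members, the 4 largest falls and rises of each treatment and the 2 in each direction of other comparisons. Of related genes the text names mainly those whose calls held under every alternative. MRPL28 between combinations, MRPL51, MRPS11, MRPS31, TACO1 with BGT226, NDUFS6, and ESRRA, GABPA and YY1 with STA9090+PIK75 fall outside the rule. So do MRPL15 and MRPS6 with BGT226, MRPS27 with STA9090+PIK75 and between combinations, and MRRF with STA9090+PIK75. All of these were named after their values were seen. For the interaction with PIK75 every called member was named, which adds MRPL2 and MRPL49 to those the rule takes. Alternatives were RLE size factors, no filter, a filter of 1 CPM in 3 libraries, DESeq2 1.42.0, a fit of only the groups compared, a replicate block, omission of the 50 genes with most counts, and omission of single libraries. A marker of the leukocyte list is not reported here.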

Additional observations from a re-analysis of the deposited data

Results flagged for a closer look

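The effect of STA9090 differed between cells with and without PIK75 in 5 members, by an interaction term in edgeR's model adjusted over all tested genes. Of all tested genes, 3.54% had a positive call and 5.73% a negative one. The log2 values of the 5 members were 0.69 for MRPL46, 0.50 for MRPL27, 0.47 for MRPL2, 0.45 for MRPL49 and 0.40 for MRPL10, each positive. MRPL46 kept its call under every alternative, but none of them addresses its same-strand overlap with another gene. MRPL49 lost it without STA9090+PIK75 replicate 1 (adjusted p = 0.0583). MRPL2 lost it without PIK75 replicate 1 (0.0541), STA9090 replicate 1 (0.0643) or 2 (0.0749), STA9090+PIK75 replicate 1 (0.0744) or 2 (0.0599), or untreated replicate 2 (0.0657) or 3 (0.0675), and in a fit of the compared groups alone (0.0645). MRPL10 lost it without PIK75 replicate 1 (0.0805) or 2 (0.0596), STA9090 replicate 1 (0.0756) or 3 (0.0521), STA9090+PIK75 replicate 1 (0.0986) or 2 (0.0911), or untreated replicate 2 (0.106), with no filter on low counts (0.0841) and in a fit of the compared groups alone (0.0819). MRPL27 lost it without PIK75 replicate 1 (0.0957) or 3 (0.0552), STA9090 replicate 1 (0.0784) or 2 (0.0741), STA9090+PIK75 replicate 2 (0.107) or 3 (0.0557), or any untreated library (0.0596, 0.0884 and 0.0507 without replicates 1, 2 and 3). It also ended with DESeq2 (0.0651), with no filter (0.08) and in a fit of the compared groups alone (0.0654).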

How the results depend on the processing

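Of 355 calls of a member in a comparison, 228 held under every alternative, 127 ended under at least 1, and none changed direction. All 127 ended without some single library, and 53 also under another setting. Member counts stayed within 1.5 times of those reported except as follows. A fit of the compared groups alone called 0 members with STA9090 against untreated cells, 3 with STA9090+BGT226 against BGT226, and 2 for the interaction of STA9090 with PIK75. Without a filter on low counts that interaction had 3. Leaving out 1 library gave 0 to 2 calls with STA9090, 4 to 9 with PIK75, 29 to 40 with BGT226, 21 to 30 for BGT226 against PIK75 and 2 to 6 for the interaction with PIK75. The interaction had 2 calls without PIK75 replicate 1, STA9090+PIK75 replicate 1 or STA9090+PIK75 replicate 2, and 3 without STA9090 replicate 2 or untreated replicate 2.

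Same-numbered libraries did not deviate together (r from -0.17 to 0.15, 2 of 45 pairs over 0.1, and 2 of 18 libraries closest to their own number), so the numbers were not taken as pairs. The replicate block ended 15 of the 355 calls, with adjusted p of 0.0635 for MRPS18A with BGT226, 0.0537 for MRPS18C with STA9090+PIK75 and 0.0536 for the interaction of MRPL27. It kept the STA9090 count at 2. Of 88 calls of related genes, 40 held under every alternative. With 3 libraries a group, small changes of low genes such as MRPL1 are hard to detect.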
